A study of Rattus norvegicus with 18 samples.

Results

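The genes described here are ATP-driven efflux pumps for drugs, the enzyme Cyp2d4 and its reductase, read in the prefrontal cortex (PFC) of rat pups. They are listed as candidates for moving or metabolising oxycodone (oxy), and whether each of them handles oxy was not tested here. Members were the rows whose gene symbol was *Abcb1a*, *Abcb1b*, *Abcg2*, *Abcc1*, *Abcc4*, *Abcc5*, *Cyp2d4* or *Por*. Of these 8 symbols, 7 had a row among the 32623 genes listed for each pup, and *Abcb1b* was not analysed here. Whether reads of *Abcb1b*, a close copy of *Abcb1a*, were assigned to the *Abcb1a* row cannot be told from the files. All 7 passed the filter on low counts and were among the 15703 genes tested. Bulk RNA was sequenced from the PFC of 18 Sprague Dawley pups at P14, 6 in each of 3 groups. The dams of SAL pups received saline. The dams of PNO pups were gavaged with oxy at 15 mg/kg/day from parturition on, so that exposure was postnatal. The dams of IUO pups started at 10 mg/kg/day for 5 days, went up by 0.5 mg/kg/day over 10 days to 15 mg/kg/day, were then mated, and stayed on oxy through gestation until weaning. The pups of the IUO group were thus exposed in utero and after birth, and both exposed groups shared the exposure after birth. The litter of each pup is not given in the labels, so p-values measure the spread between these pups, some of which may be littermates.

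The efflux pumps belong to the ATP-binding cassette (ABC) family, which uses the energy of ATP to move small molecules out of cells. In the brain, P-glycoprotein (encoded in rats by *Abcb1a* and *Abcb1b*) and breast cancer resistance protein (encoded by *Abcg2*) sit on the blood-facing membrane of capillary endothelial cells and return many drugs to the blood. The multidrug resistance proteins encoded by *Abcc1*, *Abcc4* and *Abcc5* export organic anions and conjugates, and those of *Abcc4* and *Abcc5* also export cyclic nucleotides. Cyp2d4 is the CYP2D enzyme of the rat brain, and human CYP2D converts oxy to oxymorphone. Por, the cytochrome reductase of the endoplasmic reticulum, passes electrons to microsomal CYP enzymes.

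Summed expected counts lay between 18381819 and 26084780 per pup, with a median of 22726306. General neuronal markers (6 of 6 genes tested) had a mean log2 CPM between 8.80 and 9.25 in every pup. Cortical projection neuron markers (5 of 5) lay between 5.64 and 7.36, whereas striatal neuron markers (6 of 6) lay between 3.53 and 7.11 in SAL, between 3.89 and 6.86 in PNO and between 5.23 and 7.35 in IUO. The RNA of some pups therefore carried more transcripts of striatal markers than that of others. Endothelial markers (11 of the 12 listed were tested), from the cells in which *Abcb1a* and *Abcg2* are best known, lay between 4.52 and 4.96 in SAL, between 4.49 and 4.92 in PNO and between 4.56 and 4.84 in IUO, so the 3 groups overlapped.

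RefSeq promoter entries (GRCr8, 250 bases before to 50 bases after the start of transcription) matched 7 of the 8 symbols, *Abcb1b* among them and *Abcc5* not. The promoters of the pair of blood-facing pumps are shown because their levels are compared with each other. *Abcg2* lies at chr4:89075224-89075523 on the plus strand and *Abcb1a* at chr4:26397599-26397898 on the minus strand. Both are written 5′ to 3′ in the direction of the gene, with matches to the motifs searched in capitals.

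Abcg2: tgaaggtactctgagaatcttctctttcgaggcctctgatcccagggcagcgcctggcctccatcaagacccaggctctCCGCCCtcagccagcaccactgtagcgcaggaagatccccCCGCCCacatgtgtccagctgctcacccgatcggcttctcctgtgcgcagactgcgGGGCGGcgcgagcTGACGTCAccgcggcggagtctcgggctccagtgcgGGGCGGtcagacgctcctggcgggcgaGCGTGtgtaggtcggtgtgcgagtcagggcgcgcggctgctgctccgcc

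Abcb1a: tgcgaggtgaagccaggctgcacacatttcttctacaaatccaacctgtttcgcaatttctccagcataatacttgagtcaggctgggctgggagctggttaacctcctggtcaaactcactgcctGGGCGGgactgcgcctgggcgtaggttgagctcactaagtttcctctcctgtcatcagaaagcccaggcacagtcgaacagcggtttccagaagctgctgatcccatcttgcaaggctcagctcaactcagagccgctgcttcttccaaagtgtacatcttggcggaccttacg

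Motifs were searched on both strands, a palindrome being counted once. They were the GC box GGGCGG, the cAMP response element TGACGTCA, the xenobiotic response core GCGTG, the antioxidant response core TGACNNNGC, the E-box CACGTG and TATAAA. The *Abcg2* entry held 4 GC boxes, 1 TGACGTCA that starts at position -62 from the start of transcription, and 1 GCGTG that starts at position 2, with no overlap between matches. The *Abcb1a* entry held 1 GC box and no match to the other motifs. GC boxes were found in 33.1% of all 33469 promoters, GCGTG in 29.7% and TGACGTCA in 1.83%. Among the 7 member entries, GC boxes were found in 7, GCGTG in 4, CACGTG in 1 and TGACGTCA in 1, and TGACNNNGC and TATAAA in 0. CACGTG was found in 6.42% of all promoters, TGACNNNGC in 12.1% and TATAAA in 14.2%. These matches describe the letters of the window and were not tied to the counts. G and C made up 68% of the *Abcg2* entry and 53.7% of the *Abcb1a* entry, against a median of 51.7% over all promoters.

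Per gene length, the electron donor and the organic anion pump encoded by *Abcc5* were the most abundant of the set, and *Abcg2* and *Abcc4* the least. Mean TPM (transcripts scaled by gene length to a fixed total, the scale used to compare genes) over the 18 pups was 53.6 for *Por*, 38.8 for *Abcc5*, 13.2 for *Abcc1*, 11.3 for *Cyp2d4*, 10.4 for *Abcb1a*, 4.88 for *Abcg2* and 4.07 for *Abcc4*. *Por* exceeded *Abcc5* in 18 of 18 pups, although their ranges over pups overlapped (39.6 to 62.1 against 32.8 to 49.5 TPM). *Abcc5* and *Abcc1* did not overlap. *Abcc1*, *Cyp2d4* and *Abcb1a* were not separated by their spread over pups, since *Abcc1* exceeded *Cyp2d4* in 12 of 18 pups and *Cyp2d4* exceeded *Abcb1a* in 10. *Abcb1a* exceeded *Abcg2* in 18 of 18 pups.

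The order of the lowest pair was not the same in the 3 groups. In TPM, *Abcg2* was above *Abcc4* in 1 of 6 SAL pups, in 5 of 6 PNO pups and in 5 of 6 IUO pups. The mean ratio of *Abcg2* to *Abcc4* was 0.806 ± 0.224 (SD, n = 6) in SAL, 1.74 ± 0.7 in PNO and 1.31 ± 0.219 in IUO. *Abcg2* was thus the least abundant of the 7 genes by its mean in SAL, and *Abcc4* was in both exposed groups.

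**Figure D1:**
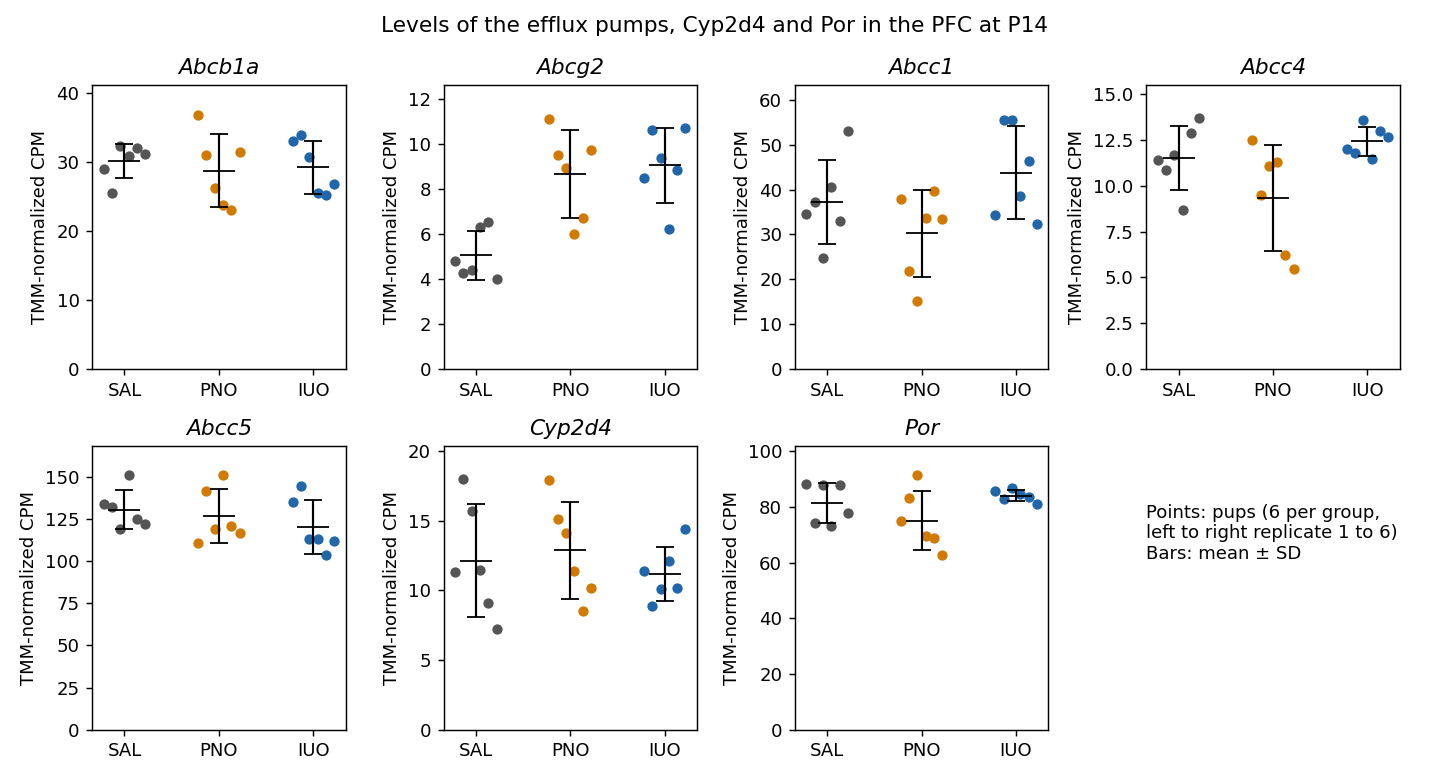
Level of each of the 7 genes in each pup, in TMM-normalized CPM (counts scaled to library size, y axes start at 0), by group (SAL, PNO, IUO; 6 points each, bars are mean ± SD). *Abcg2* lay at 4.0 to 6.5 CPM in SAL, 5.97 to 11.1 in PNO and 6.22 to 10.7 in IUO, while *Abcb1a* lay at 25.6 to 32.3, 23.1 to 36.8 and 25.2 to 33.9.

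*Abcg2*, the pump known as breast cancer resistance protein, had the largest difference of the 7 genes against SAL. In CPM after TMM normalization, the scale used to compare pups, its lowest, median and highest values were 4.0, 4.59 and 6.5 in SAL, 5.97, 9.2 and 11.1 in PNO, and 6.22, 9.1 and 10.7 in IUO. The means were 5.04 ± 1.09 in SAL, 8.66 ± 1.95 in PNO and 9.03 ± 1.65 in IUO (SD, n = 6 each). All 6 PNO and all 6 IUO pups lay above the SAL median, and 5 of 6 in each exposed group lay above the highest SAL pup. The ranges overlapped through the lowest pup of each exposed group.

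Against SAL, *Abcg2* was 1.72-fold higher in PNO (95% interval 1.32 to 2.23, log2 fold change 0.78, SE 0.18) with an unadjusted p = 0.000329 and an adjusted p = 0.912 in edgeR's quasi-likelihood test. In IUO it was 1.79-fold higher (95% interval 1.38 to 2.32, log2 fold change 0.84, SE 0.18), with an unadjusted p = 0.000155 and an adjusted p = 0.186 in the same edgeR test. Neither difference passed the adjusted threshold of 0.05. Both comparisons used the same SAL pups and are given side by side. IUO and PNO differed by a log2 fold change of 0.06 in *Abcg2* (fold 1.04, 95% interval 0.807 to 1.35, edgeR unadjusted p = 0.733, adjusted p = 0.886). The interval of the difference between the exposure schedules therefore reached from 0.807-fold to 1.35-fold.

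In the edgeR fit reported here, *Abcg2* had the smallest p of the 15703 genes in PNO against SAL and ranked 11 in IUO against SAL. Its place in PNO against SAL was not first in every fit: other genes had a smaller adjusted p with DESeq2, with the endothelial score as a covariate, and without PNO replicate 2, 3 or 5 or SAL replicate 2. At the p of *Abcg2* in PNO against SAL, 5.17 of the 15703 genes would be reached if no gene differed. The members were chosen with earlier results of these data known, so the ranks and member counts are a description. *Abcg2* was the only member past an unadjusted p of 0.05 in PNO against SAL (1 of 7), where 4.5% of all genes tested were past it (1.89% higher in PNO and 2.6% lower), and the only one in IUO against SAL (1 of 7), where 6.88% were (3.02% higher in IUO and 3.87% lower). No gene passed the adjusted threshold in either comparison with edgeR. The counts at an unadjusted p under 0.05 were 706 and 1081, DESeq2 called 1 and 49 genes, and limma-voom called 0 and 43. Without SAL replicate 2, edgeR called 1 gene in IUO against SAL. The member count in PNO against SAL was 2 without PNO replicate 1 or SAL replicate 4, where *Abcc4* was added, and without PNO replicate 3, where *Por* was.

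The *Abcg2* difference kept its direction and an unadjusted p under 0.05 in all 26 alternatives run for each SAL comparison. Its log2 fold change lay between 0.67 and 0.87 in PNO and between 0.75 and 0.93 in IUO. Adjusted p lay between 0.116 and 1.0 in PNO against SAL and between 0.00589 and 0.403 in IUO against SAL, the lowest in each being that of DESeq2. With both exposed groups averaged, a comparison added after the data were seen, *Abcg2* was 1.75-fold higher than in SAL (log2 fold change 0.81, SE 0.16, edgeR unadjusted p = 6.64e-05, adjusted p = 0.801). The counts behind these values were low, at 83 to 155 reads per pup in SAL, 122 to 296 in PNO and 149 to 244 in IUO, and all were whole numbers.

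**Figure D2:**
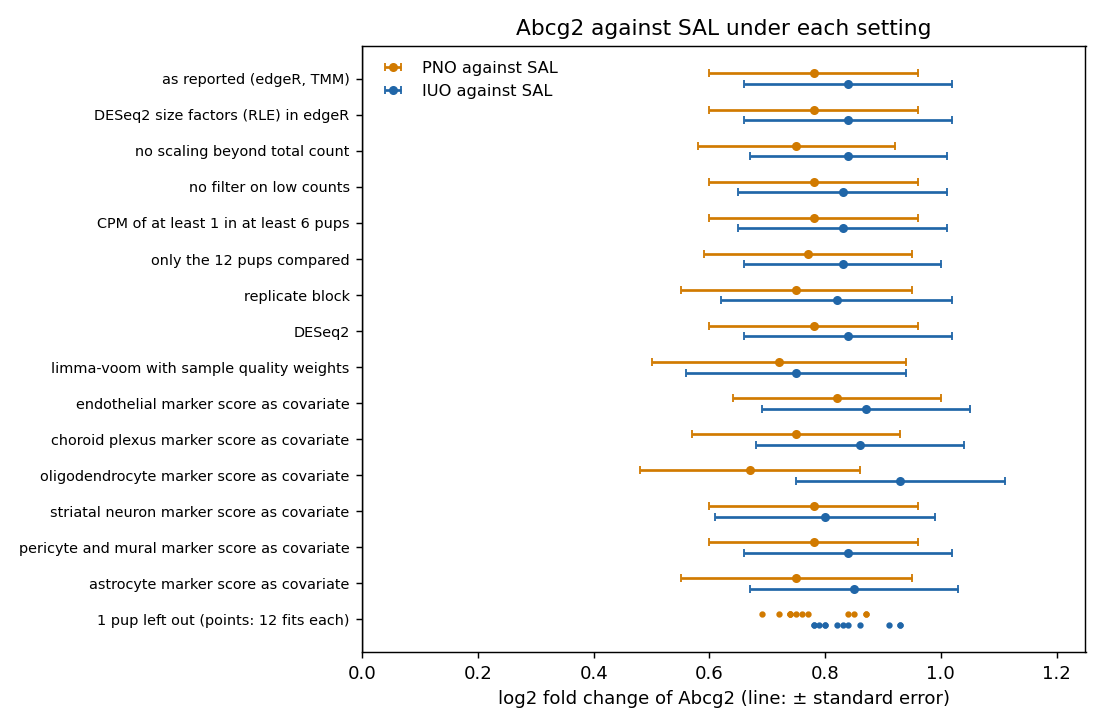
Log2 fold change of *Abcg2* against SAL (x axis) for PNO (orange) and IUO (blue) under each setting (rows; lines are ± standard error, the last row shows fits with 1 pup left out as points). The estimates lay between 0.67 and 0.87 for PNO and between 0.75 and 0.93 for IUO.

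In bulk tissue, more RNA of a gene per cell and more cells that carry it cannot be told apart. The endothelial marker score overlapped between the groups, with means of 4.76 ± 0.15 in SAL, 4.68 ± 0.17 in PNO and 4.70 ± 0.10 in IUO on the log2 CPM scale (SD, n = 6). With that score as a covariate, the log2 fold change of *Abcg2* was 0.82 in PNO and 0.87 in IUO. Pericyte and mural markers (8 of 8) lay between 3.77 and 4.32 in SAL, 3.83 and 4.17 in PNO and 3.86 and 4.11 in IUO, and with their score as a covariate the values were 0.78 and 0.84. PNO replicate 1 held the highest choroid plexus, oligodendrocyte and astrocyte scores of its group and the highest *Abcg2* level of all pups. Without it the log2 fold change in PNO was 0.69. With the oligodendrocyte score as a covariate it was 0.67 in PNO, and with the striatal neuron score it was 0.80 in IUO, the group with the highest mean striatal score (6.12, against 5.04 in SAL and 4.92 in PNO).

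*Abcb1a*, which encodes P-glycoprotein, gave values close to each other in the 3 groups. Its lowest, median and highest CPM were 25.6, 31.1 and 32.3 in SAL, 23.1, 28.7 and 36.8 in PNO, and 25.2, 28.9 and 33.9 in IUO. All 3 ranges overlapped, and both exposed groups had pups above the SAL range (1 in PNO, 2 in IUO) and below it (2 in PNO, 1 in IUO). The fold difference was 0.953 in PNO against SAL (95% interval 0.805 to 1.13), 0.969 in IUO against SAL (0.819 to 1.15) and 1.02 in IUO against PNO (0.859 to 1.2). The edgeR unadjusted p-values were 0.552, 0.696 and 0.837, with adjusted p of 0.922, 0.996 and 0.935.

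Set against each other in the same library, the blood-facing pumps gave a ratio that did not overlap between SAL and either exposed group. The ratio of *Abcg2* to *Abcb1a* in TPM was 0.31 ± 0.0465 in SAL, 0.534 ± 0.0536 in PNO and 0.581 ± 0.109 in IUO (SD, n = 6). It ran from 0.263 to 0.381 in SAL, from 0.429 to 0.579 in PNO and from 0.452 to 0.734 in IUO. Every exposed pup was above every SAL pup. Any *Abcb1b* reads assigned to *Abcb1a* would enter the ratio. This ratio was chosen after the values of both genes were seen, so it is given as a description with no test. Of the other 15702 genes tested, taken as a ratio to *Abcb1a* with *Abcg2* included, 0.0255% separated PNO above SAL in this way, 0.115% separated IUO above SAL and 0.0127% did both. Pearson's r of *Abcb1a* and *Abcg2* in log2 CPM was 0.64 over 18 pups after group means were removed, and within groups it was 0.36 in SAL, 0.93 in PNO and 0.43 in IUO. The value was highest among PNO pups. Without the 2 pups farthest from the *Abcb1a* median, r with group means removed was 0.53. These values are a description over pups sequenced on the same flow cell.

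**Figure D3:**
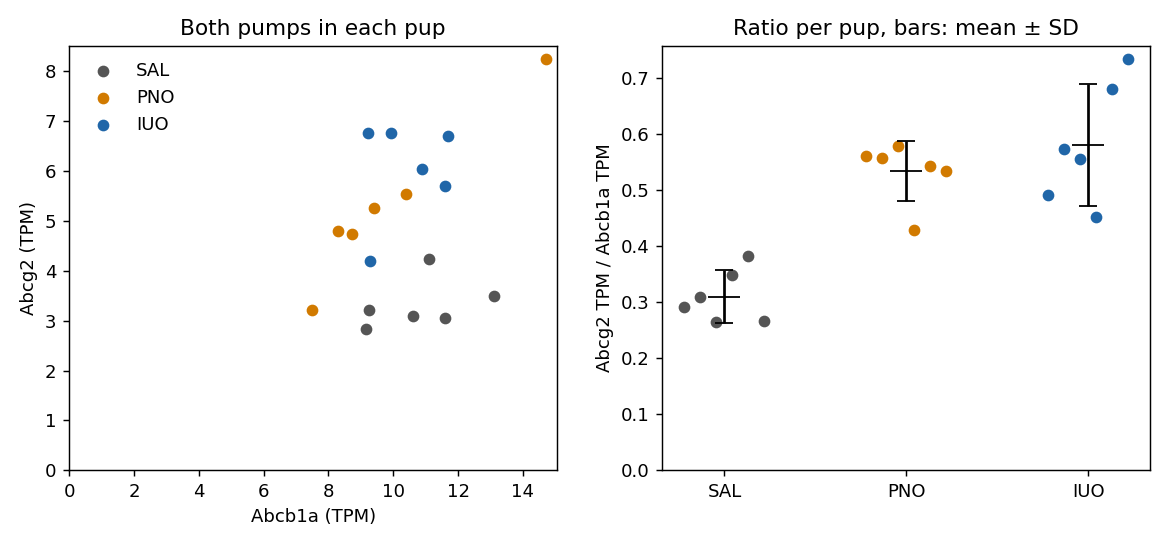
Left, *Abcg2* against *Abcb1a* in TPM in each of 18 pups, coloured by group. Right, the ratio of both per pup with the mean ± SD, where SAL pups lay between 0.263 and 0.381, PNO pups between 0.429 and 0.579 and IUO pups between 0.452 and 0.734.

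For the *Abcc1* and *Abcc4* pumps, the largest differences lay between the exposed groups. *Abcc1*, which exports glutathione conjugates, had a lowest, median and highest CPM of 24.8, 36.0 and 53.0 in SAL, 15.2, 33.5 and 39.6 in PNO, and 32.4, 42.5 and 55.6 in IUO. The groups overlapped, and 5 of 6 IUO pups lay above the PNO median. *Abcc1* was 1.45-fold higher in IUO than in PNO (95% interval 1.04 to 2.01, log2 fold change 0.53, SE 0.22, edgeR unadjusted p = 0.0267, adjusted p = 0.269). Against SAL the log2 fold change was -0.30 in PNO (SE 0.22, edgeR unadjusted p = 0.194, adjusted p = 0.912) and 0.24 in IUO (SE 0.22, edgeR unadjusted p = 0.299, adjusted p = 0.954). With 1 pup left out these ran from -0.39 to -0.16 in PNO (-0.16 without PNO replicate 3, -0.17 without SAL replicate 6) and from 0.14 to 0.36 in IUO (0.14 without SAL replicate 3, 0.15 without IUO replicate 2, 0.36 without SAL replicate 6). The counts of *Abcc1* were not whole in any of the 18 pups, so reads shared with similar sequence were divided by estimation.

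*Abcc4*, which exports cyclic nucleotides and many drugs, had a lowest, median and highest CPM of 8.67, 11.6 and 13.7 in SAL, 5.47, 10.3 and 12.5 in PNO, and 11.5, 12.3 and 13.6 in IUO. PNO replicates 5 and 6, at 6.23 and 5.47 CPM, were the lowest of all 18 pups, and all 6 IUO pups lay above the PNO median. *Abcc4* was 1.33-fold higher in IUO than in PNO (95% interval 1.03 to 1.71, log2 fold change 0.41, SE 0.17, edgeR unadjusted p = 0.0289, adjusted p = 0.275). Without PNO replicate 5 the log2 fold change was 0.31 (edgeR unadjusted p = 0.081), and without PNO replicate 6 it was 0.29 (edgeR unadjusted p = 0.0665). Against SAL the log2 fold change was -0.30 in PNO (SE 0.17, edgeR unadjusted p = 0.095, adjusted p = 0.912) and 0.11 in IUO (SE 0.17, edgeR unadjusted p = 0.546, adjusted p = 0.992). With 1 pup left out these ran from -0.40 to -0.19 in PNO (-0.19 without PNO replicate 6) and from 0.04 to 0.16 in IUO (0.04 without SAL replicate 4).

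*Abcc5*, which exports cyclic nucleotides and glutamate conjugates, was the most abundant of the 5 pumps among the members. Its lowest, median and highest CPM were 119.0, 129.0 and 151.0 in SAL, 111.0, 120.0 and 151.0 in PNO, and 104.0, 113.0 and 145.0 in IUO. The groups overlapped, although 4 of 6 IUO pups and 3 of 6 PNO pups lay below the lowest SAL pup. The fold difference was 0.922 in IUO against SAL (95% interval 0.802 to 1.06, edgeR unadjusted p = 0.229, adjusted p = 0.918), 0.97 in PNO against SAL (0.843 to 1.11) and 0.951 in IUO against PNO (0.827 to 1.09). The log2 fold change in IUO against SAL was -0.12, and with 1 pup left out it ran from -0.19 (without IUO replicate 2) to -0.07 (without SAL replicate 4).

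Among the 7 members, 2 were past an unadjusted p of 0.05 in IUO against PNO, *Abcc1* and *Abcc4*, both higher in IUO. In this comparison 15.3% of all genes tested were past it, 6.14% higher in IUO and 9.14% lower, so the background was wider than against SAL. At an adjusted p under 0.05, edgeR called 10 genes (0.0637%), none of them a member, and this number ran from 1 (without IUO replicate 3, PNO replicate 4 or PNO replicate 6) to 95 (without PNO replicate 5). *Abcc1* was no longer past an unadjusted p of 0.05 without IUO replicate 2 or 3 or PNO replicate 2 or 3, with p between 0.0572 and 0.0688. Without PNO replicate 2 or 3 *Por* was past it in place of *Abcc1*, and likewise with the choroid plexus score as a covariate (*Abcc1* edgeR unadjusted p = 0.0607). *Abcc4* was not past it without IUO replicate 3 or 5 or PNO replicate 5 or 6, with p between 0.0529 and 0.081. No member was past it without IUO replicate 3. With the oligodendrocyte marker score as a covariate, the log2 fold change of *Abcc1* was 0.30 (edgeR unadjusted p = 0.278) and that of *Abcc4* 0.47 (edgeR unadjusted p = 0.0621). With the striatal neuron score they were 0.76 (edgeR unadjusted p = 0.00338) and 0.35 (edgeR unadjusted p = 0.0718). *Abcc1* lay between 0.30 and 0.76 over its 26 alternatives, and was past an unadjusted p of 0.05 in 19 of them. With the astrocyte score as a covariate, only *Abcc4* was past it. Oligodendrocyte markers (8 of 8) lay between 7.26 and 9.66 in PNO and between 6.81 and 8.12 in IUO on the log2 CPM scale, against 6.49 to 8.68 in SAL. Their part in these differences was not tested beyond the covariate.

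**Figure D4:**
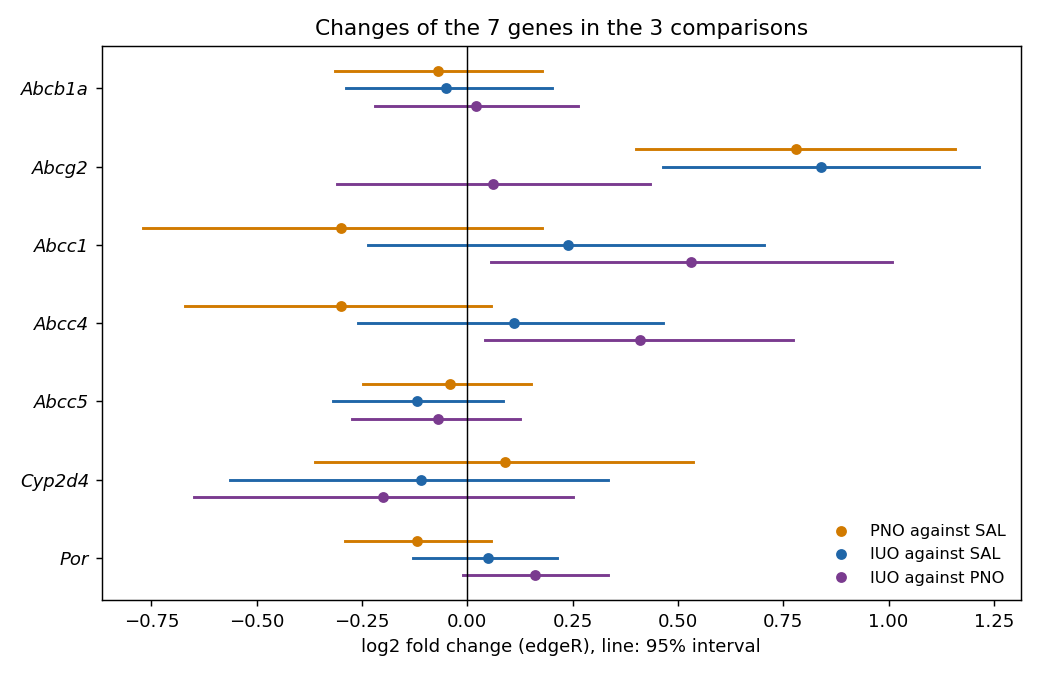
Log2 fold change (x axis, edgeR) of each of the 7 genes in the 3 comparisons (each exposed group against SAL, and IUO against PNO), with 95% intervals as lines. The intervals of *Abcg2* lay above 0 against SAL (1.32-fold to 2.23-fold in PNO, 1.38-fold to 2.32-fold in IUO), and those of *Abcc1* and *Abcc4* lay above 0 in IUO against PNO only.

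*Cyp2d4*, the brain CYP2D enzyme, varied more between pups than between groups. Its lowest, median and highest CPM were 7.25, 11.4 and 18.0 in SAL, 8.52, 12.7 and 17.9 in PNO, and 8.9, 10.8 and 14.4 in IUO. Every PNO and IUO pup lay within the SAL range. The direction of its differences was not stable. With the oligodendrocyte score as a covariate the log2 fold change was -0.15 in PNO against SAL, 0.17 in IUO against SAL and 0.32 in IUO against PNO, each opposite to the fit without it. In that fit the fold difference was 1.06 in PNO against SAL (95% interval 0.778 to 1.45), 0.924 in IUO against SAL (0.677 to 1.26) and 0.871 in IUO against PNO (0.638 to 1.19), with edgeR unadjusted p of 0.69, 0.593 and 0.355 and adjusted p of 0.95, 0.996 and 0.667. Its counts were not whole in any pup, so reads shared with similar sequence were divided by estimation here too. Of the counts of *Cyp2d1*, *Cyp2d2*, *Cyp2d4* and *Cyp2d5* together, *Cyp2d4* took between 81.7% and 99.4% per pup (median 88.6%).

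*Por* had the narrowest spread in IUO. Its lowest, median and highest CPM were 73.0, 82.7 and 88.2 in SAL, 62.9, 72.1 and 91.3 in PNO, and 80.9, 84.1 and 86.7 in IUO. All IUO pups lay within the SAL range, while 3 of 6 PNO pups lay below it and 1 above. *Por* was 1.12-fold higher in IUO than in PNO (95% interval 0.993 to 1.26, log2 fold change 0.16, SE 0.08, edgeR unadjusted p = 0.0606, adjusted p = 0.352). In this comparison *Por* was past an unadjusted p of 0.05 in 7 of 26 alternatives: without PNO replicate 3 (log2 fold change 0.23, edgeR unadjusted p = 0.00691) or 2 (0.19, edgeR unadjusted p = 0.0344), with limma-voom, without scaling, with the replicate block and with the choroid plexus or the pericyte and mural score as a covariate. Its log2 fold change ran from 0.07 (striatal neuron score) to 0.23 over the 26, and the smallest adjusted p was 0.0583 (limma-voom). Against SAL the log2 fold change was -0.12 in PNO (SE 0.08, edgeR unadjusted p = 0.167, adjusted p = 0.912) and 0.05 in IUO (SE 0.08, edgeR unadjusted p = 0.581, adjusted p = 0.996). With 1 pup left out these ran from -0.18 (without PNO replicate 3) to -0.07 (without PNO replicate 6) in PNO and from 0.02 (without SAL replicate 2 or 4) to 0.07 in IUO.

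The relation of each member to cell type markers was examined because the pumps and enzymes come from different cells. Each of the 7 members was set against the endothelial, choroid plexus, oligodendrocyte and astrocyte scores over 18 pups, which makes 28 relations, and with the groups pooled none was past an adjusted p of 0.05 by permutation. The smallest adjusted p was 0.0655, for *Cyp2d4* with the choroid plexus score (r = 0.667, permutation p = 0.00269; rho = 0.649, permutation p = 0.00435, adjusted 0.118) and with the oligodendrocyte score (r = 0.638, permutation p = 0.00468; rho = 0.571, permutation p = 0.015, adjusted 0.118). Without the 2 pups farthest from the median score, r was 0.509 and 0.433. Within groups, r with the choroid plexus score was 0.522 in SAL, 0.843 in PNO and 0.657 in IUO. With the oligodendrocyte score it was 0.879, 0.761 and -0.232, so that relation did not hold in IUO. With group means removed, pups were permuted freely over all 18 with no allowance for the means removed, so these p-values are too small. Whether the relations pass an adjusted p of 0.05 is therefore not decided. As computed, both *Cyp2d4* relations were past it for r by permutation, and the one with the choroid plexus score also for rho. Their r was 0.653 and 0.672 (permutation p = 0.00352 and 0.00227, adjusted 0.0329 each), and 0.518 and 0.393 without the 2 farthest pups. Their rho was 0.717 and 0.604 (permutation p = 0.00118 and 0.00919, adjusted 0.033 and 0.0643). *Abcc1* with the endothelial score was past that threshold, as computed, on both measures (r = -0.648, permutation p = 0.00352, adjusted 0.0329, and rho = -0.678, permutation p = 0.00259, adjusted 0.0343). Its r was -0.552 without the 2 farthest pups. Inside the SAL group it was -0.983, against -0.558 for PNO pups and -0.398 for IUO pups. *Abcc5* with the astrocyte score was past that threshold, as computed, for rho only (rho = -0.655, permutation p = 0.00367, adjusted 0.0343). Its r was -0.504 (permutation p = 0.0321, adjusted 0.18), and -0.574 without the 2 farthest pups. Within groups r was -0.105, -0.72 and -0.567 in SAL, PNO and IUO pups. Choroid plexus markers (8 of 8) lay between -0.36 and 2.76 in SAL, 0.06 and 3.5 in PNO and -0.77 and 2.33 in IUO on the log2 CPM scale, so some libraries held far more of these transcripts than others. *Abcg2* and the endothelial score had r = -0.0578 (permutation p = 0.819; rho = -0.0836, permutation p = 0.742; adjusted p = 0.852 and 0.799; 0.308 without the 2 farthest pups), and within groups r was 0.289 in SAL, 0.285 in PNO and 0.176 in IUO. For *Abcb1a* and the endothelial score r was 0.295 (permutation p = 0.234; rho = 0.327, permutation p = 0.185; adjusted p = 0.515 and 0.518; 0.545 without the 2 farthest pups), and within groups r was 0.149, 0.18 and 0.611.

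Among the members themselves, *Abcc1* and *Por* had r = -0.67 of log2 CPM over 18 pups with group means removed, but within groups r was -0.64 in SAL, -0.86 in PNO and 0.30 in IUO, so IUO pups ran the other way. For *Abcc1* and *Cyp2d4* the pooled r was -0.53, and it was negative in each group (-0.61 in SAL, -0.38 in PNO and -0.89 in IUO). For *Abcc4* and *Por* it was 0.58, with 0.50, 0.62 and 0.15 in these groups. Without the 2 pups farthest from the median of the gene named first, the pooled r of these pairs was -0.44, -0.5 and 0.34. By r with group means removed over the 15703 genes, the gene most like each member was *Mospd2* for *Abcb1a* (r = 0.875), *Zmynd12* for *Abcg2* (0.804), *Mdn1* for *Abcc1* (0.944), LOC100911796 for *Abcc4* (0.843), *Hnrnpd* for *Abcc5* (0.933), *C1qtnf9* for *Cyp2d4* (0.891) and *Mast3* for *Por* (0.949). The next were *Itga6* (0.868) and *Adal* (0.837) for *Abcb1a*, *Kif24* (0.794) and LOC691033 (0.791) for *Abcg2*, *Rev3l* (0.941) and *Slc25a36* (0.934) for *Abcc1*, and *Dclre1a* (0.828) and LOC100362176 (0.796) for *Abcc4*. They were *E4f1* (0.923) and *Noc2l* (0.913) for *Abcc5*, *Bcan* (0.862) and *Ninj2* (0.828) for *Cyp2d4*, and *Arhgef3* (0.925) and *Kctd1* (0.924) for *Por*. These values are a description of 18 pups of unequal depth sequenced on the same flow cell, and values within groups were not computed for these genes. The genes were picked as the highest over 15703, a choice that by itself favours high r. Mean CPM was low for some of them, at 0.4 for LOC691033, 0.69 for LOC100362176, 0.85 for LOC100911796, 1.1 for *Kif24* and *C1qtnf9*, and 1.65 for *Zmynd12*.

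The other genes of drug disposition were 67 listed pumps, uptake carriers, opioid-metabolising enzymes, partners of Por and regulators, of which 58 had a row and 48 were tested in 50 rows, since *Cyp3a9* and *Nr3c1* had 2 rows each. None of them passed an adjusted p of 0.05 in edgeR. At an unadjusted p under 0.05, 0 of 50 rows were past it in PNO against SAL (DESeq2 1, limma-voom 3), 3 of 50 (6%) in IUO against SAL (DESeq2 4, limma-voom 12) and 7 of 50 (14%) in IUO against PNO (DESeq2 7, limma-voom 14). The shares with edgeR lay at or under those of all genes tested, which were 4.5%, 6.88% and 15.3%. Over all alternatives the counts ran from 0 to 5, 3 to 12 and 5 to 14, and with 1 pup left out from 0 to 4, 3 to 5 and 5 to 13. The median log2 fold change of the 50 rows was 0.05, -0.03 and -0.07, against 0.0, -0.01 and 0.0 over all genes tested. In edgeR, none of the 9 genes tested as other efflux pumps was past an unadjusted p of 0.05 in any comparison. Nor was any of the 12 tested as uptake carriers. Other fits are not given for these lists separately, and being on them does not show that a gene transports oxy.

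The opioid-metabolising enzymes tested were *Cyp2d1* and *Cyp3a9*, in 3 rows. The largest difference was that of 1 of the 2 rows named *Cyp3a9* (ENSRNOG00000046643), a CYP3A enzyme of the kind that converts oxy to noroxycodone. Its mean CPM was 1.44 ± 0.453 in SAL, 1.73 ± 0.59 in PNO and 0.831 ± 0.33 in IUO (SD, n = 6), with a log2 fold change of -1.07 in IUO against PNO (SE 0.3, edgeR unadjusted p = 0.00212, adjusted p = 0.125) and -0.80 in IUO against SAL (SE 0.3, unadjusted p = 0.0156, adjusted p = 0.579). The other row of that name gave 0.02 and 0.25 in these comparisons, and both levels were low.

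Among the 16 partners of Por and related electron carriers, 5 (31.2%) were past an unadjusted p of 0.05 in IUO against PNO, where 15.3% of all genes tested were (9.14% lower and 6.14% higher in IUO). Lower in IUO than in PNO were *Hmox1*, the inducible heme oxygenase (-0.29, edgeR unadjusted p = 0.0186, adjusted p = 0.235), *Hmox2*, the constitutive one (-0.27, unadjusted p = 0.0106, adjusted p = 0.193), *Cyb5a*, cytochrome b5 (-0.28, unadjusted p = 0.0161, adjusted p = 0.225), and *Pgrmc2* (-0.18, unadjusted p = 0.0254, adjusted p = 0.263). *Cyb5r3*, the reductase of cytochrome b5, was higher in IUO (0.23, edgeR unadjusted p = 0.0238, adjusted p = 0.257). In IUO against SAL, *Hmox1* gave -0.33 (edgeR unadjusted p = 0.00952, adjusted p = 0.53) and *Cyb5r3* gave 0.24 (unadjusted p = 0.0157, adjusted p = 0.579). Of the 9 regulators tested (10 rows), only *Ctnnb1*, beta-catenin, was past an unadjusted p of 0.05, and only in IUO against PNO (0.29, edgeR unadjusted p = 0.0274, adjusted p = 0.271). Oligodendrocyte and striatal scores moved with the same comparison, at means of 8.74 and 4.92 in PNO and 7.41 and 6.12 in IUO. Microglia markers (7 of 8 tested) lay between 4.52 and 4.73 in PNO, between 4.24 and 4.55 in IUO and between 4.38 and 4.91 in SAL (means of 4.59, 4.41 and 4.62), and mean astrocyte scores were 7.69 for SAL, 7.79 for PNO and 7.60 for IUO pups. The part of microglia in these differences was not tested. With the oligodendrocyte score as a covariate 0 of the 16 partners were past an unadjusted p of 0.05 in edgeR, with the astrocyte score 4 and with the striatal neuron score 7, and with 1 pup left out 4 to 7. The 4 with the astrocyte score were *Hmox2*, *Pgrmc2*, *Cyb5r1* and *Sqle*, so *Hmox1*, *Cyb5a* and *Cyb5r3* were not among them. *Cyb5r3* was also not past it with the choroid plexus score or without IUO replicate 3 or 5 or PNO replicate 1, *Pgrmc2* without IUO replicate 4 or PNO replicate 2, and *Hmox1* without PNO replicate 6. Values given in parentheses and for *Hmox1* and *Cyb5r3* against SAL are log2 fold changes.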

How the data were processed

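RNA from the PFC of 18 pups was sequenced as 75 bp single reads on 1 flow cell. The authors deposited, per pup, an expected count per gene, in which a read matching several genes is divided between them by estimation, and TPM values scaled by gene length to a fixed total. FPKM values were not used. The aligner, the quantification program and the genome build are not given in the sources used here. Totals of 18381819 to 26084780 per pup were the depth, and *Abcg2* had the fewest counts of the members.

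After rounding of the expected counts, edgeR 4.0.16 (R 4.3.3) was run with filterByExpr by group, TMM factors and its two-sided quasi-likelihood test (1 model over all 18 pups with 15 residual degrees of freedom), with Benjamini-Hochberg adjustment over the 15703 genes tested. CPM are TMM-normalized. For log2 CPM the prior count was 2. Intervals are 95% intervals of the log2 fold change. Groups and replicate numbers were taken from the sample titles, and no pair of pups had identical values. Marker scores are means of log2 CPM, and relations used 100000 permutations, two-sided. Alternatives were other scaling, limma-voom with quality weights (limma 3.58.1), DESeq2 1.42.0, other filters, fits of only the 12 pups compared, replicate number as a block, covariates made of marker scores (the endothelial score planned, the others added after seeing the data) and each pup left out. Tests were tried on simulated data. Python 3.11.15, numpy 2.4.6, pandas 2.3.3, scipy 1.17.1 and matplotlib 3.10.9 made tables and plots.

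Named genes are all members, the listed drug disposition genes with an unadjusted p under 0.05 in any comparison (at most 10), and the 3 genes most like each member. The members and lists were chosen with earlier results of these data known.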

Additional observations from a re-analysis of the deposited data

How the results depend on the processing

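Of 546 alternatives for the members' log2 fold changes, 522 kept direction and side of the adjusted threshold, 22 turned direction and 2 passed it: *Abcg2* in IUO against SAL with DESeq2 (adjusted p = 0.00589) and *Abcc4* in IUO against PNO with limma-voom (adjusted p = 0.0476). The cause was not tested for any change below. Genes called in PNO against SAL were 0, and 1 with DESeq2. In IUO against SAL they were 0, and 49 with DESeq2, 43 with limma-voom and 1 with the choroid plexus score as covariate. In IUO against PNO they were 10, and 436 with DESeq2, 2028 with limma-voom, 19 without scaling, 72 with only the 12 pups compared, 6 with the replicate block, and 118, 42, 2, 1 and 0 with the endothelial, pericyte and mural, oligodendrocyte, striatal neuron and astrocyte scores as covariates. With 1 pup left out they were 0 to 0, 0 to 1 and 1 to 95. Members past an unadjusted p of 0.05 in PNO against SAL were 1, and 2 with the endothelial score or limma-voom (1 to 2 with 1 pup left out). In IUO against PNO they were 2, and 1 with the astrocyte or striatal neuron score, 0 with the oligodendrocyte score and 3 with limma-voom, no scaling or the pericyte and mural score (0 to 2 with 1 pup left out), and in IUO against SAL 1 to 1. Relations past an adjusted p of 0.05 were 0, and 1 without scaling and 3 with group means removed, by r. By rho there were also 3, with *Abcc5* and the astrocyte score in place of *Cyp2d4* and the oligodendrocyte score. The permutation with group means removed made no allowance for those means. Its p-values are therefore too small, and these counts of 3 are not decided. Turned log2 fold changes were as follows. In PNO against SAL, *Abcc5* gave 0.01 (astrocyte score) and 0.02 (limma-voom), and *Cyp2d4* gave -0.09 (astrocyte score), -0.20 (limma-voom), -0.15 (oligodendrocyte score) and -0.03 (without PNO replicate 1 or SAL replicate 6, in a range of -0.03 to 0.23 with 1 pup left out). In IUO against SAL, *Abcb1a* gave 0.01 (oligodendrocyte score), *Cyp2d4* 0.03 (astrocyte score), 0.17 (oligodendrocyte score) and 0.03 (without SAL replicate 2, range -0.23 to 0.03), and *Por* -0.04 (striatal neuron score). In IUO against PNO, *Abcb1a* gave -0.05 (striatal neuron score) and (range -0.04 to 0.10) without IUO replicate 1 (-0.01) or 2 (-0.03) or PNO replicate 4 (-0.03) or 5 (-0.04), *Abcg2* -0.03 and -0.01 (without PNO replicate 4 and 5, range -0.03 to 0.15), *Abcc5* 0.01 (oligodendrocyte score) and *Cyp2d4* 0.11 (astrocyte score) and 0.32 (oligodendrocyte score). Replicate numbers were not taken to pair the pups, since not every pair of same-numbered pups had a correlation over 0.1 (4, 1 and 3 of 6 pairs; mean 0.232, -0.027 and 0.063, against -0.046, 0.005 and -0.013 for other numbers), although in PNO against SAL they were closer than other pups; 6, 1 and 4 of 12 pups correlated best with their own number. With the replicate block, members past an unadjusted p of 0.05 were 1, 1 and 3, with *Por* added in IUO against PNO (edgeR unadjusted p = 0.0365). Depth limits *Abcg2*, with as few as 83 counts in a pup.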
